A study of Mus musculus with 30 samples.

Results

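The genes described here are 10 transcripts that cells commonly raise when oxygen is short or when glucose use is high, chosen by name as Slc2a1, Hk2, Pfkfb3, Pfkfb4, Pgk1, Ldha, Car9, Adm, Bnip3 and Ndrg1 from the 24421 genes listed for every library. They were measured in 30 libraries of polyadenylated RNA, each from bulk mouse tissue at postnatal day 70 and each from 1 sample. The 28 tumour libraries, from brain tumours of the cortex that the labels call glioblastoma, formed 8 groups. In 6 of these the tumours carried the epidermal growth factor receptor, EGFR, with 1 amino acid change in its extracellular part, namely A289I (5 libraries), A289V (4), R108G (3), R108K (4), R222C (3) or T263P (3). In the other two groups the tumours carried wild-type EGFR (3 libraries) or the fluorescent protein mCherry in place of a receptor (3). The last group was normal cortex of wild-type mice (2 libraries). How the tumours were started, the mouse strain and the promoter behind the receptor are not given in the sources used here, and nothing in the labels says whether 1 animal gave more than 1 sample, so p-values measure the spread between these samples.

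Cells short of oxygen stabilise the HIF transcription factors, which bind DNA with their partner ARNT and raise genes of glucose uptake, glycolysis, acid handling, vessel growth and mitochondrial turnover. In glioblastoma such genes are known to be high in cells around necrotic areas, and growth factor receptors such as EGFR are also known to raise glycolysis in tumour cells. Slc2a1 encodes the glucose transporter GLUT1, and Hk2 the hexokinase that traps glucose in the cell. Pfkfb3 and Pfkfb4 make the signal molecule that speeds up phosphofructokinase. Pgk1 is a glycolytic kinase and Ldha the lactate dehydrogenase subunit that turns pyruvate into lactate. Car9 encodes a carbonic anhydrase of the cell surface, Adm the vessel-dilating peptide adrenomedullin, Bnip3 a protein of mitophagy and Ndrg1 a stress-induced protein that is also abundant in myelinating cells.

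All 10 genes passed the filter of at least 1 RPM in at least 3 libraries, and levels are in RPM, which here means the deposited value over a constant of 10.3. Depth was 2784129 to 24475215 reads per library, so that 1 read was 0.0387 to 0.383 RPM. The summed level of 12 neuron markers was 47.1 to 10968 RPM in the tumours and 14552 to 14579 RPM in cortex, and that of 10 cell cycle genes 429 to 2033 RPM in the tumours and 78.5 to 80.5 RPM in cortex. The 8 oligodendrocyte markers summed to 1054 to 13726 RPM in the tumours and 12332 to 12760 RPM in cortex, the 8 astrocyte markers to 798 to 6312 and 4232 to 4566 RPM, and the 9 microglia and macrophage markers to 566 to 3223 and 454 to 507 RPM. In bulk tissue, fewer cells of a type and less RNA per cell cannot be told apart. The library numbers in the labels fell in 3 ranges (7 tumours below 20, 12 tumours and both cortex libraries from 20 to 37, 9 tumours above 37). The share of reads on the ribosomal RNA entry Rn45s was 0.165% to 0.343% in the tumours below 20, 2.47% to 4.57% from 20 to 37 and 0.117% to 1.32% above 37. Only the tumours from 20 to 37 stood apart by this share, since those below 20 and above 37 overlapped. The cortex libraries, at 1.24% and 0.873%, lay below the tumours of their own range. Of the 9 groups, mCherry alone has libraries both below and above 37. In a fit with a term for 2 ranges, the step at 37 is therefore set by mCherry library 3 against mCherry libraries 1 and 2. With 3 ranges it also depends on the step at 20, set by A289V, R108K and wild-type EGFR, which have libraries on both sides of 20.

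The start regions of 5 of the genes are shown because they hold the short motif that HIF factors are known to bind: the genes called higher in tumours than in cortex (Car9, Hk2 and Pfkfb3) and the pair whose levels moved most closely together over the tumours (Ldha and Pgk1). Each is the RefSeq window on GRCm38.p6 of 250 bases before to 50 bases after a start site, 5′ to 3′ on the gene's own strand, at chr4:43506776-43507075 (+) for Car9, chr6:82774405-82774704 (-) for Hk2, chr2:11553880-11554179 (-) for Pfkfb3, chr7:46845554-46845853 (+) for Ldha and chrX:106186850-106187149 (+) for Pgk1. Capitals mark ACGTG or GCGTG and, on the other strand, CACGT or CACGC, and CACGTG is read as 1 overlapping pair.
Car9: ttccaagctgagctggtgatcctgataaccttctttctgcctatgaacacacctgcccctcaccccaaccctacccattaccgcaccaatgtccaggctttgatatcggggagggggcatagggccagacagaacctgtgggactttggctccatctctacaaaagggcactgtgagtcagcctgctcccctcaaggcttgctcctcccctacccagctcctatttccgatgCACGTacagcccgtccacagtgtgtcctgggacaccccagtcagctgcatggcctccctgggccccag
Hk2: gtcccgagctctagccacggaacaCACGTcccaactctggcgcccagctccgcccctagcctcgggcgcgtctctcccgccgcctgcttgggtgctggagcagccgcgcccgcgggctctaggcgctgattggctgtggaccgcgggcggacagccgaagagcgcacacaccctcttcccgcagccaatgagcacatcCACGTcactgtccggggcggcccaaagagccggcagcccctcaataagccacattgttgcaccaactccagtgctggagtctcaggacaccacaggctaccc
Pfkfb3: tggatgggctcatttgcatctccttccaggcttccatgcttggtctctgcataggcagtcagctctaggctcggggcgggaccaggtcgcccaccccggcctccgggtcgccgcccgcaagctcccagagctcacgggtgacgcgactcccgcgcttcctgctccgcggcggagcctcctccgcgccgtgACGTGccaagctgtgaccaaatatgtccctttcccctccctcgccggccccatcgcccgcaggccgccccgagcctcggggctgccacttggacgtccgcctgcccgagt
Ldha: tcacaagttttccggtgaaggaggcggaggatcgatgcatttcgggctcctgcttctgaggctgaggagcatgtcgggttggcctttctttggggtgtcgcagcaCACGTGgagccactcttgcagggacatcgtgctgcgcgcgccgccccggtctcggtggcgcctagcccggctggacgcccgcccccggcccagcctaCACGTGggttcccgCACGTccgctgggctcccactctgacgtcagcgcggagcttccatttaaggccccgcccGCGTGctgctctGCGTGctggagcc
Pgk1: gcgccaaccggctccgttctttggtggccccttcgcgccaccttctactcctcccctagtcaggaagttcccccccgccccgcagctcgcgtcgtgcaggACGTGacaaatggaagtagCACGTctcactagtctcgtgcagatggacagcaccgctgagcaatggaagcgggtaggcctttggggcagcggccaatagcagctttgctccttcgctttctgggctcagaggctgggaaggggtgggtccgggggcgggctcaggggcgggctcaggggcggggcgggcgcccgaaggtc
The Car9 window has 1 match, 18 bases before the start site. The Pfkfb3 window shown has 1 match and no CACGTG, while the other Pfkfb3 window in RefSeq has 4 matches, in which CACGTG occurs at 1 place. The Ldha window shown has 7 matches, in which CACGTG occurs at 2 places, while the other Ldha window in RefSeq has 2 matches and no CACGTG. The last 25 bases of the window shown were in no Ldha transcript of GENCODE M21, and those of the other window were. RefSeq held windows for 9 of the 10 genes, 11 in all, and at least 1 match was found in each of the 9 genes. The motif is common: 43.8% of all 32851 windows of this length held it, as did the windows of 64.9% of the tested genes in the table. CACGTG was present in 3 of the 11 windows and in 7.15% of all windows. The median GC content was 65.3% in the 11 windows and 52.7% in all windows, and a match is a description of the letters, not of binding.

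All tumours were first set against normal cortex, which asks how the genes stood in the tumour relative to the tissue it grew in. Hk2, Car9 and Pfkfb3 were higher in every tumour library than in both cortex libraries, Ndrg1 was lower in the tumours on average, and the other 6 genes were not called. The lack of overlap in 3 of the 10 genes stands beside 30.8% of all tested genes. These 4 of 10 calls are to be read against the whole table, in which 47.4% of the 15824 tested genes were called (limma, adjusted p under 0.05), 22.9% higher and 24.5% lower. The share among the 10 is therefore near the background, and the result lies in the values of each gene. The median log2 difference was 0.43 over the 10 genes and 0.03 over all tested genes.

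Hk2 and Pfkfb3 act early in glycolysis. Hk2 (mm10 chromosome 6, 82725025 to 82774454, minus strand) had a lowest level of 14.7, a median of 35.7 and a highest of 80.1 RPM in the 28 tumours, against 3.09 and 3.40 RPM in the cortex libraries. The lowest tumour, A289V library 2, thus lay above both cortex samples. On the log2(RPM + 1) scale the tumours were higher by 3.12 ± 0.42 (SE, limma adjusted p = 2.9e-06), and with mCherry tumours alone, at 17.7, 46.0 and 52.3 RPM against the same cortex, by 3.09 ± 0.52 (limma adjusted p = 9.3e-05). Hk2 kept its call in all 41 alternatives against cortex, with a log2 difference of 2.30 to 3.57. Pfkfb3 (chromosome 2, 11471433 to 11554077, minus strand) had a lowest level of 39.6, a median of 85.9 and a highest of 186 RPM in the tumours, against 29.1 and 22.8 RPM in cortex. The groups did not overlap, and the difference was 1.64 ± 0.37 (SE, limma adjusted p = 0.0009). In mCherry tumours Pfkfb3 was 84.8, 186 and 98.2 RPM, higher than cortex by 2.13 ± 0.47 (limma adjusted p = 0.0011).

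Car9 (chromosome 4, 43506966 to 43513729, plus strand) had a lowest level of 0.664, a median of 9.77 and a highest of 110 RPM in the tumours, against 0.172 and 0.283 RPM in cortex. The cortex values were 1 and 2 reads, with exact Poisson 95% intervals of 0.00435 to 0.958 and 0.0343 to 1.02 RPM that cover counting error only. Every tumour lay above both cortex libraries, but the lowest, T263P library 2, lay within these intervals. The mean over the 28 tumours was 73.0 times the cortex mean, with a counting interval of 24.98 to 354 that comes from the 3 cortex reads. On the log2(RPM + 1) scale, which understates the change of low genes, the difference was 3.11 ± 0.90 (SE, limma adjusted p = 0.0063). The 3 mCherry tumours had 2.07, 2.52 and 70.3 RPM, and their difference from cortex of 2.90 ± 1.12 (limma adjusted p = 0.0431) was 1.42 (limma adjusted p = 0.302) without mCherry library 3, the highest of them. Adm (chromosome 7, 110627661 to 110629820, plus strand), had a lowest level of 1.196, a median of 11.95 and a highest of 69.5 RPM in the tumours, against 2.92 and 1.27 RPM in cortex. These ranges overlapped, and the difference of 1.88 ± 0.79 did not pass (SE, limma adjusted p = 0.0534). It passed in 13 of 41 alternatives, among them DESeq2 (2.62, adjusted p = 0.0056) and a pseudocount of 0.1 RPM (2.26, limma adjusted p = 0.0412), and was 0.26 at the lowest.

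Ndrg1 (chromosome 15, 66929318 to 66969640, minus strand) went the other way. In the tumours it had a lowest level of 40.3, a median of 87.8 and a highest of 276 RPM, against 225 and 213 RPM in cortex. Only R108K library 2, the highest, reached above cortex, and the difference was -1.34 ± 0.46 (SE, limma adjusted p = 0.0179). The mCherry tumours, at 48.5, 48.1 and 148 RPM, were all below cortex, by 1.63 ± 0.57 on the log2 scale (log2 difference -1.63, limma adjusted p = 0.0263). Oligodendrocyte markers moved with it: 6 of the 8 were called lower in tumours than in cortex and none was called higher (the means of 7 were lower and of 1 higher), and their part in the Ndrg1 result was not tested. Bnip3 was also lower on average, with a lowest level of 52.3, a median of 101.8 and a highest of 267 RPM in the tumours against 188 and 196 RPM in cortex. The ranges overlapped and the difference of -0.76 ± 0.41 did not pass (SE, limma adjusted p = 0.136).

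The remaining 4 genes spread around the cortex level. Ldha was 354 to 1814 RPM in the tumours (median 691) against 452 and 477 RPM in cortex, Pgk1 320 to 1605 RPM (median 642) against 729 and 728 RPM, Slc2a1 55.9 to 187 RPM (median 119) against 98.7 and 96.2 RPM, and Pfkfb4 9.17 to 52.5 RPM (median 16.8) against 17.5 and 17.97 RPM. Cortex lay inside the tumour range for each of these 4 genes. Their log2 differences from cortex were 0.63 ± 0.44, -0.09 ± 0.47, 0.22 ± 0.30 and -0.05 ± 0.33 (SE, in the same order), none past the limma threshold, and the sign turned in at least 1 alternative for each of them. A p that misses the threshold does not show that the levels were alike.

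The calls against cortex rest on 2 cortex libraries. Leaving out cortex library 1 or 2 ended the calls of Car9 (limma adjusted p = 0.077 and 0.0665) and Ndrg1 (0.136 and 0.116) in the tumours as a whole, but not those of Hk2 and Pfkfb3. Among the 12 tumours with library numbers of 20 to 37, the range of both cortex libraries, the same 4 genes were called, with log2 differences of 2.91 for Hk2, 3.02 for Car9, 1.35 for Pfkfb3 and -1.61 for Ndrg1. A term for 2 or 3 ranges of library numbers ended the Car9 call (1.82 and 1.27, limma adjusted p = 0.0828 and 0.264), with a step at 37 that rests on mCherry library 3, the highest mCherry tumour for Car9. With the mean of the neuron markers as a covariate, only Hk2 kept its call of the 4. The difference of Car9 was then 1.53, while that of Ndrg1 was -1.39 and that of Pfkfb3 1.42, about as large as without the covariate (limma adjusted p = 0.402, 0.145 and 0.065).

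In mCherry tumours against cortex, where 38.3% of the tested genes were called by limma, the same 4 of 10 genes were called, 3 higher (17.8% of all tested genes were) and 1 lower (20.5%). This comparison shares its cortex libraries with the one above. The Ndrg1 call ended in edgeR (adjusted p = 0.0541), with only the groups compared (limma adjusted p = 0.0606), with the neuron covariate (0.116) and without mCherry library 1 or 2 or cortex library 1 or 2 (0.0858 to 0.12). The Car9 call also ended with no filter (limma adjusted p = 0.0609), with only the groups compared (0.16) and without cortex library 1 or 2 (0.161 and 0.145). The difference was -0.99 ± 0.51 for Bnip3 and 1.30 ± 0.99 for Adm (SE, limma adjusted p = 0.131 and 0.316). All 3 mCherry tumours lay below both cortex libraries for Bnip3, at 79.5, 89.1 and 126 RPM, and around them for Adm, at 1.58, 18.4 and 6.87 RPM. The groups did not overlap for 5 of the 10 genes, against 66.5% of all tested genes. The plot of differences sets these values beside those of the receptor groups.

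**Figure D1:**
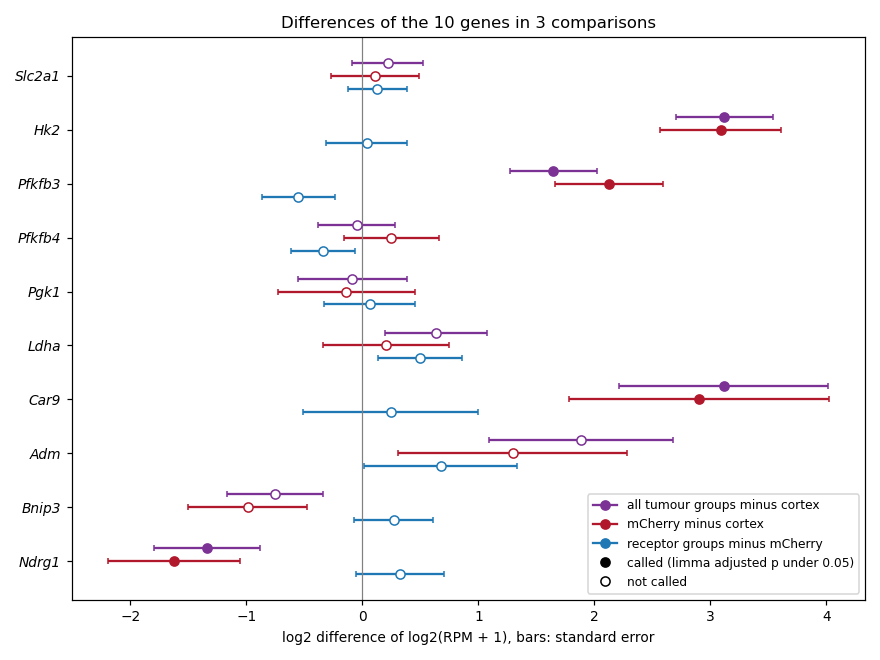
Differences on the log2(RPM + 1) scale with their standard errors for the 10 genes (rows), for all tumour groups minus cortex, mCherry minus cortex and receptor groups minus mCherry. Filled points passed the limma threshold: Hk2, Pfkfb3 and Car9 lie right of 0 and Ndrg1 left of it in both comparisons with cortex, and no point of the receptor groups against mCherry is filled.

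Genes of the same pathways outside the set give the setting of these values. Of 30 further hypoxia targets, 7 were called higher and 4 lower in tumours than in cortex, with 47.4% of all tested genes called, and the median log2 difference was 0.43. The collagen-modifying enzyme gene Plod2 was higher by 2.98 ± 0.41 and the histone demethylase gene Kdm3a by 1.27 ± 0.22, whereas Bnip3l, the close relative of Bnip3, differed by -1.16 ± 0.23 (SE, limma adjusted p = 3.9e-06, 6.3e-05 and 0.00028). Of 19 other glycolytic genes, 1 was called higher and 11 lower, with a median of -1.04. The enolase gene Eno2, known from neurons, differed by -3.20 ± 0.50, the lactate dehydrogenase gene Ldhb by -2.01 ± 0.46, the phosphofructokinase gene Pfkm by -1.69 ± 0.36 and the aldolase gene Aldoc, known from astrocytes, by -1.37 ± 0.31 (SE, limma adjusted p from 1.7e-05 to 0.001). All 12 neuron markers were lower too, and their part in the enzymes' lower levels was not tested. Of 11 genes of the HIF machinery, 4 were called higher and 3 lower. Arnt, the partner of the HIF factors, differed by 1.07 ± 0.19, its relative Arnt2, known from neurons, by -1.48 ± 0.32, the HIF hydroxylase gene Egln2 by -1.02 ± 0.18 and Epas1, which encodes HIF-2α, by -1.27 ± 0.33 (SE, limma adjusted p from 5e-05 to 0.0031).

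The 7 receptor groups were then set against mCherry, which asks what EGFR or its altered forms add. None of the 10 genes was called, against 0.0379% of all tested genes (6 genes, all higher). The log2 differences ran from -0.55 ± 0.31 for Pfkfb3 to 0.67 ± 0.66 for Adm (SE, limma adjusted p = 0.817 and 0.927), and 8 of the 10 were above 0. Pfkfb3 averaged 83.1 ± 27.8 RPM in the 25 receptor tumours and 123 ± 55.1 RPM in the 3 mCherry tumours, and Ldha 822 ± 393 RPM and 558 ± 193 RPM (SD). The ranges overlapped for all 10 genes.

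Nor was any of the genes called in the 15 other comparisons between tumour groups, which set each receptor form against mCherry, each altered form against wild-type EGFR, A289I against A289V and R108G against R108K, nor in a test of any difference among the 8 tumour groups. Among the 160 pairs of gene and comparison, limma called 0 and edgeR 0, DESeq2 called 1 (Car9 in A289V against mCherry), and 4 had an unadjusted limma p under 0.05. The share of all tested genes called in these comparisons was 13.7% in A289V against wild-type EGFR, 4.91% in A289V against mCherry, 0.607% and 0.335% in A289I against mCherry and wild-type EGFR, 0.0695% in R108K and 0.0379% in R108G against mCherry, 0.00632% in T263P against mCherry and 0 in the other comparisons, with 10.3% in the test over the 8 groups. These shares rest on single libraries and on the settings of the fit. The 2160 genes of A289V against wild-type EGFR became 78 without wild-type EGFR library 2, 128 without A289V library 2 and 589 without A289V library 1. The 777 of A289V against mCherry became 3 without A289V library 1 or 2, 104 and 2 without mCherry library 2 and 3, and 1674 without A289V library 4. In A289I against A289V, where none was called, 534 were without A289I library 4, 172 without A289V library 4 and 3241 with library weights. The 1633 of the test over 8 groups became 216 and 229 without A289V library 1 and 2. With the neuron mean as a covariate, 0 genes were called in A289V against wild-type EGFR and 1 in A289V against mCherry. In that fit the test over 8 groups called 6, and A289I against mCherry 131. With terms for 2 and 3 ranges, 2 and 0 were called in A289V against mCherry, but 2133 and 2012 in A289V against wild-type EGFR. Standard errors of 0.25 to 1.004 on the log2 scale, largest for Car9, set what could be seen, and the absolute differences reached 1.58.

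**Figure D2:**
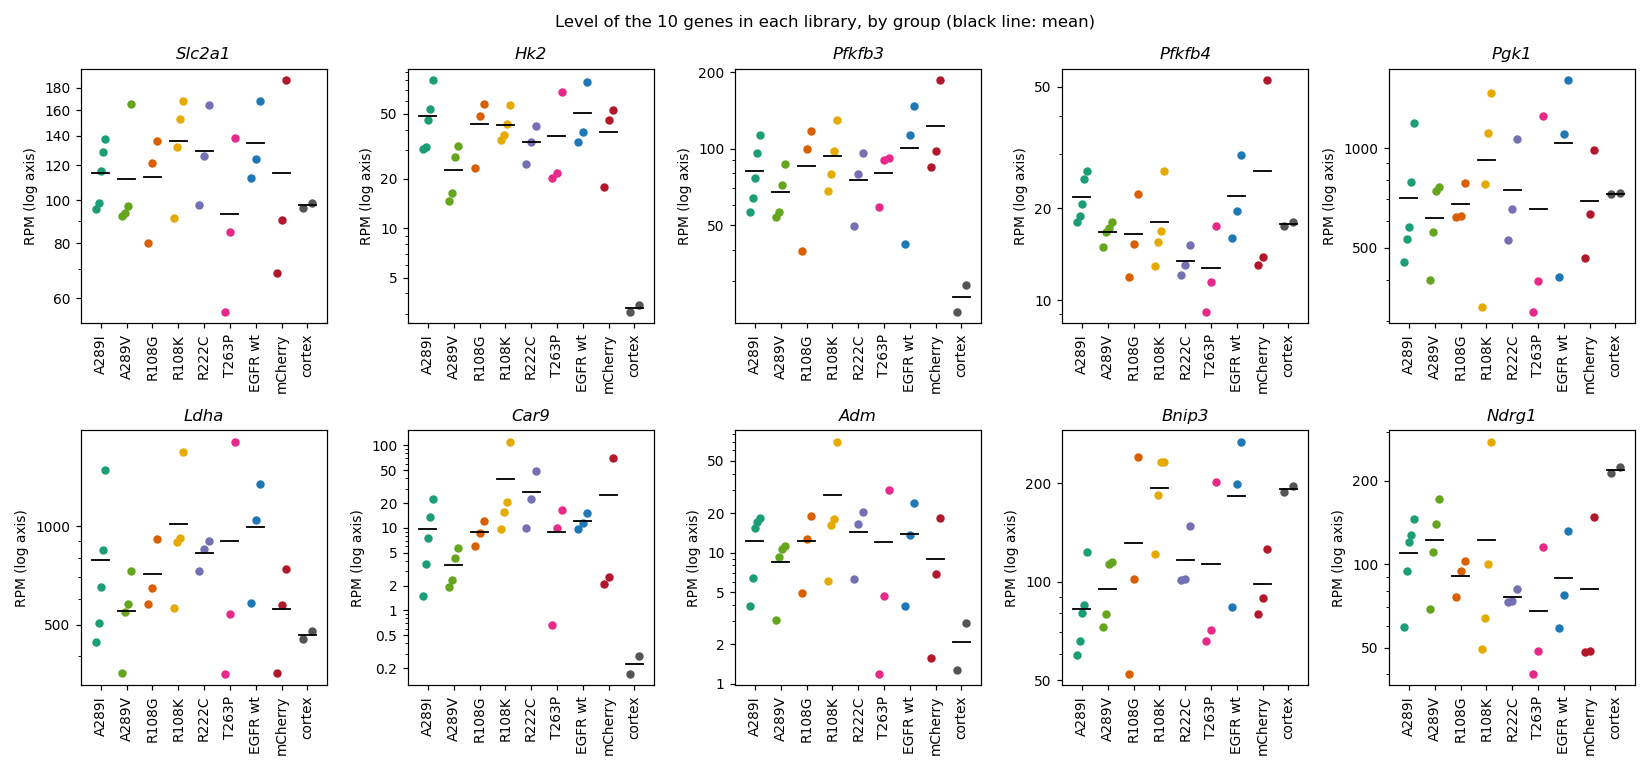
RPM of each gene (panels, logarithmic vertical axis) in every library, by group from the altered EGFR forms through wild-type EGFR and mCherry to cortex, with a black line at the group mean. Cortex lies below every tumour for Hk2, Pfkfb3 and Car9, while the tumour groups overlap widely, and single tumours such as R108K library 1 for Car9 (110 RPM) stand far above their group.

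The 4 pairs with an unadjusted limma p under 0.05, out of 160, concerned Hk2 and Bnip3. Chance alone passes that threshold in about 1 in 20 pairs, and none of the 4 was called after adjustment. Hk2 was 16.4, 14.7, 27.3 and 31.9 RPM in A289V tumours, against 78.5, 38.8 and 33.4 RPM in wild-type EGFR tumours. Every A289V tumour lay below every wild-type EGFR tumour. The groups did not overlap for 2 of the 10 genes in this comparison, against 25.5% of all tested genes. The log2 difference of -1.09 ± 0.44 had an unadjusted p of 0.0197 and a limma adjusted p of 0.0946, the lowest adjusted p of any of the genes between tumour groups. Car9 was the other gene without overlap here, at 5.69, 2.36, 4.30 and 1.94 RPM in A289V tumours against 15.2, 11.6 and 9.67 RPM in wild-type EGFR tumours (-1.58 ± 0.94 SE, limma adjusted p = 0.268). The neuron markers summed to 3012 to 10968 RPM in the A289V tumours and 216 to 1489 RPM in the wild-type EGFR tumours, with 9 of the 12 called higher, and with their mean as a covariate the Hk2 difference was -0.42. Within library numbers below 20 it was -1.70, within 20 to 37 -0.49, and without wild-type EGFR library 1 it was -0.72.

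A289I and A289V change the same alanine. Hk2 was 80.1, 53.4, 46.0, 30.2 and 31.4 RPM in A289I tumours, against 16.4, 14.7, 27.3 and 31.9 RPM in A289V tumours. The A289I tumours were higher on average by 1.04 ± 0.38, the ranges overlapped, and the difference did not pass (SE, unadjusted p = 0.0119, limma adjusted p = 0.155). All A289I libraries carried numbers above 37 and no A289V library did, so the form and the range of numbers cannot be told apart here. With a term for 2 or 3 ranges, whose step at 37 rests on mCherry library 3, the difference was 0.19 and 0.02.

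Bnip3 gave the other two. It was 233, 232, 185 and 122 RPM in R108K tumours, against 79.5, 89.1 and 126 RPM in mCherry tumours. R108K library 4 fell among the mCherry values, and the difference of 0.95 ± 0.43 did not pass (SE, unadjusted p = 0.0364, limma adjusted p = 0.461). In A289I tumours Bnip3 was 123, 80.1, 65.98, 59.9 and 84.9 RPM, against 199, 267 and 83.4 RPM in wild-type EGFR tumours. Wild-type EGFR library 3 fell among the A289I values, and the difference of -1.03 ± 0.41 did not pass (SE, unadjusted p = 0.0192, limma adjusted p = 0.294). It was -0.68 without wild-type EGFR library 2. No wild-type EGFR library carried a number above 37 and all A289I libraries did, so the form and the range cannot be told apart. With a term for 2 or 3 ranges, whose step at 37 rests on mCherry library 3, the difference was -1.60 and -1.86.

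The order of group means was led by R108K, highest among the 8 tumour groups for 5 of the genes, and by wild-type EGFR, in the top 2 for 7 genes. A289V had the lowest mean for 6 genes and the highest for Ndrg1, at 122.7 RPM beside 122.4 RPM in R108K. Each of the 5 leading ranks of R108K was lost without 1 of its tumours: for Car9 its mean was 15.2 RPM without library 1 (rank 3), and for Adm 13.4 RPM without library 2 (rank 3). Wild-type EGFR fell from rank 2 to 6 for Pfkfb3 without library 2. A289V stayed at rank 8 for Car9, Pfkfb3 and Hk2 with any 1 of its libraries left out. It left that rank for Pgk1, Ldha and Adm without library 4, and lost rank 1 for Ndrg1 without library 2 or 3. For Car9 the means were 38.8 ± 47.4 RPM in R108K, 27.1 ± 19.96 in R222C, 9.77 ± 8.49 in A289I, 9.02 ± 7.95 in T263P, 8.91 ± 2.99 in R108G, 3.57 ± 1.75 in A289V, 12.2 ± 2.79 in wild-type EGFR and 24.9 ± 39.2 RPM in mCherry tumours (SD). For Adm they ran from 27.4 ± 28.5 RPM in R108K to 8.52 ± 3.72 RPM in A289V tumours, with mCherry at 8.95 ± 8.59 RPM. For Ldha they ran from 1018 ± 477 RPM in R108K to 553 ± 154 RPM in A289V tumours, with mCherry at 558 ± 193 RPM. For Car9, Adm and Ldha the SD of each mean overlapped that of its neighbours in the order, except for Car9 between A289V and R108G. The test over the 8 groups gave limma adjusted p of 0.234 for Bnip3 to 0.92 for Pgk1, with 0.309 for Car9. The share of variation over the 28 tumours that lay between groups was 10.8% for Pgk1 to 38.8% for Bnip3, against a median of 34.7% over all genes that averaged 5 RPM or more.

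The spread over single tumours was wide. Car9 varied 165-fold over the 28 tumours and Adm 58.1-fold, while the other 8 genes varied 3.34-fold (Slc2a1) to 6.86-fold (Ndrg1). R108K library 2 was among the 7 highest tumours for 9 of the 10 genes, T263P library 1 and wild-type EGFR library 2 for 7 each. T263P libraries 2 and 3 and mCherry library 1 were among the 7 lowest for 9 genes each. T263P thus held tumours of both ends: Ldha was 1814, 354 and 541 RPM in its 3 libraries, Adm 30.1, 1.196 and 4.71 RPM, and Slc2a1 139, 55.9 and 84.8 RPM. Of the 28 tumours, T263P library 2 was the lowest for Car9, Pfkfb4, Slc2a1, Ndrg1, Ldha, Pgk1 and Adm. The wild-type EGFR tumours were divided too, with Pgk1 at 1104, 1605 and 407 RPM.

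**Figure D3:**
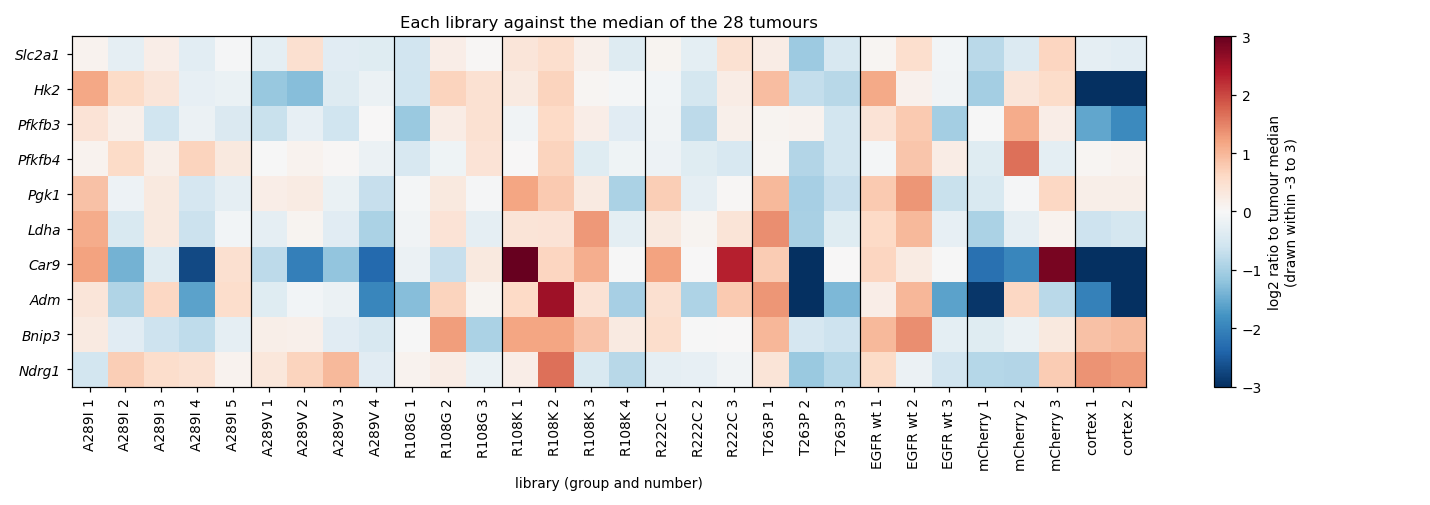
Log2 ratio of each gene's RPM to its median over the 28 tumours (colour, drawn within -3 to 3), for the 10 genes (rows) in the 30 libraries (columns, black lines between groups). Columns such as T263P 1 and R108K 2 are red and T263P 2 and mCherry 1 blue for most genes, and the cortex columns are blue for Hk2, Pfkfb3, Car9 and Adm and red for Ndrg1.

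Over the 28 tumours most of the genes varied together. Of the 45 pairs, 43 had a positive correlation of log2(RPM + 1), with a median r of 0.49, whereas over all pairs of the 12531 genes with a tumour mean of at least 5 RPM the median was -0.0037 and 49.5% were positive. In all, 175 relations were computed, and permutation p-values from 100000 resamples were adjusted over them by Benjamini and Hochberg. By both Pearson's r and Spearman's rho, 22 of the 45 pairs passed. The genes were chosen as 1 pathway with earlier results of these data known, so the shared sign is not independent evidence. With group means removed the median r was 0.52, and with the mean of the neuron markers removed 0.46, both with 43 positive pairs. Within the ranges of library numbers it was 0.60 below 20 (7 tumours), 0.52 from 20 to 37 (12) and 0.30 above 37 (9).

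The tightest pair joined the lactate dehydrogenase subunit and the glycolytic kinase. Ldha and Pgk1 had an r of 0.797 and a rho of 0.852 (two-sided permutation p = 2e-05 and 1e-05, the second the smallest these resamples can give, adjusted p = 0.00029 and 0.00015). It was 0.839 without the 2 tumours farthest from the Ldha median, and 0.950, 0.827 and 0.887 within the 3 ranges of numbers from low to high. Both genes have near-identical processed copies in the mouse genome, between which reads can be split, so their absolute levels are uncertain. Slc2a1 followed Adm (r = 0.759, rho = 0.735, permutation p = 1e-05 for both, adjusted p = 0.00017 and 0.00015), at 0.641 without the 2 farthest tumours and 0.838, 0.832 and 0.484 within the ranges. Bnip3 followed Pgk1 (r = 0.757, rho = 0.748, permutation p = 1e-05 for both, adjusted p = 0.00017 and 0.00015), at 0.742 without the 2 farthest and 0.972, 0.789 and 0.538 within the ranges. Car9 followed Slc2a1 (r = 0.683, rho = 0.646, permutation p = 9e-05 and 0.00029, adjusted p = 0.0011 and 0.0027), at 0.628 without the 2 farthest and 0.752, 0.619 and 0.704 within the ranges.

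Pfkfb4, Ndrg1 and Pfkfb3 had the fewest such relations. Pfkfb4 passed with none of the other 9 genes (r of -0.15 with Car9 to 0.49 with Pfkfb3), Ndrg1 passed only with Slc2a1 (r = 0.54) and Pfkfb3 only with Hk2 (r = 0.56), while Slc2a1 passed with 7. The Slc2a1 and Ndrg1 relation came down to 0.392 without the 2 farthest tumours and was 0.140 within the numbers above 37. The highest Pfkfb4 level, 52.5 RPM in mCherry library 2, stood beside a Car9 level of 2.52 RPM, and the highest Car9 level, 110 RPM in R108K library 1, beside a Pfkfb4 level of 16.9 RPM.

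**Figure D4:**
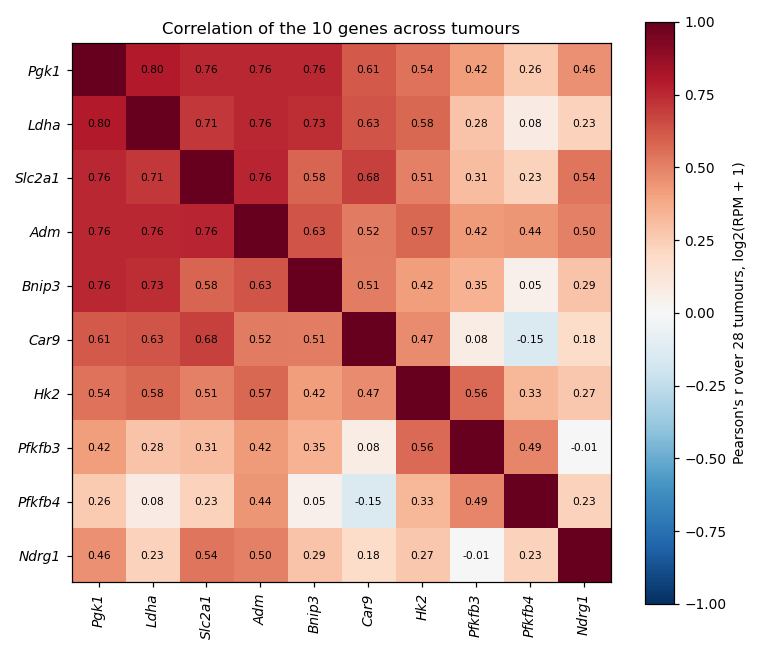
Pearson's r of log2(RPM + 1) over the 28 tumours for each pair of the 10 genes, with the value in each square. Pgk1, Ldha, Slc2a1, Adm and Bnip3 form a block of values from 0.58 to 0.80, and the rows of Pfkfb4 and Ndrg1 are pale.

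The 30 further hypoxia targets, none of them in the set, were also chosen with earlier results of these data known. Relations with them are therefore not independent evidence. Their mean was set against each gene. Adm followed it most closely (r = 0.883, rho = 0.870, permutation p = 1e-05 for both, adjusted p = 0.00017 and 0.00015), at 0.854 without the 2 tumours farthest from the Adm median and 0.909, 0.951 and 0.692 within the ranges of numbers. Ldha (r = 0.834), Slc2a1 (0.816), Pgk1 (0.810), Car9 (0.709), Bnip3 (0.626), Hk2 (0.615) and Pfkfb3 (0.490) passed as well by both measures, whereas Ndrg1 (0.321) and Pfkfb4 (0.316) did not. Within the numbers above 37 the relation was 0.224 for Bnip3 and at least 0.629 for the other 7 genes that passed, and within 20 to 37 it was 0.302 for Pfkfb3. The mean of the other glycolytic enzymes passed only with Ndrg1 (r = 0.610, rho = 0.634, permutation p = 0.00059 and 0.00045, adjusted p = 0.0051 and 0.0037), at 0.599 without the 2 farthest tumours but -0.127 above 37. With group means removed, that mean had an r of 0.700 with Slc2a1, 0.682 with Ldha, 0.666 with Adm, 0.662 with Pgk1 and 0.614 with Bnip3, against 0.205 to 0.467 before. With the other genes the r was then 0.253 (Car9) to 0.519 (Ndrg1). With the neuron mean removed it was 0.820 with Ldha, 0.725 with Adm, 0.675 with Pgk1, 0.657 with Slc2a1 and 0.485 with Bnip3. The other genes then had an r of 0.195 (Car9) to 0.585 (Ndrg1).

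Tissue markers moved with some of the genes. Ldha went against the neuron mean (r = -0.602, rho = -0.580, permutation p = 0.00061 and 0.0015, adjusted p = 0.0051 and 0.0096), and so did Car9 (r = -0.508, adjusted p = 0.0331). Ldha and Bnip3 went against the astrocyte mean (r = -0.552 and -0.540, adjusted p = 0.0159 and 0.0178). Ndrg1 followed the oligodendrocyte mean (r = 0.499, rho = 0.525, permutation p = 0.0073 and 0.0053, adjusted p = 0.0354 and 0.025), at 0.565 without the 2 farthest tumours and 0.637, 0.629 and 0.040 within the ranges. With the neuron mean removed, the relation with the astrocyte mean was -0.173 for Ldha and -0.387 for Bnip3. Slc2a1 passed with the mean of 10 endothelium and pericyte markers by r alone (r = 0.481, rho = 0.417, permutation p = 0.0098 and 0.0296, adjusted p = 0.0438 and 0.0958). That relation was 0.223 without the 2 farthest tumours and 0.665, 0.745 and 0.211 within the ranges. The part of these cell types in the levels was not tested further. By both measures no gene passed with the number of reads (r of -0.14 to 0.27), the ribosomal share (-0.48 to 0.02) or the Egfr entry of the mouse genome (-0.13 to 0.41). Whether that entry counts reads of the introduced receptor is not given in the sources used here. Pfkfb4 and the ribosomal share passed by r alone (r = -0.484, rho = -0.467, permutation p = 0.0071 and 0.0126, adjusted p = 0.0353 and 0.0509). The relations with Egfr differed between the ranges of numbers. From low to high they were 0.849, 0.669 and -0.397 for Car9, 0.739, 0.540 and 0.083 for Slc2a1 and -0.449, 0.022 and 0.212 for Pfkfb3.

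**Figure D5:**
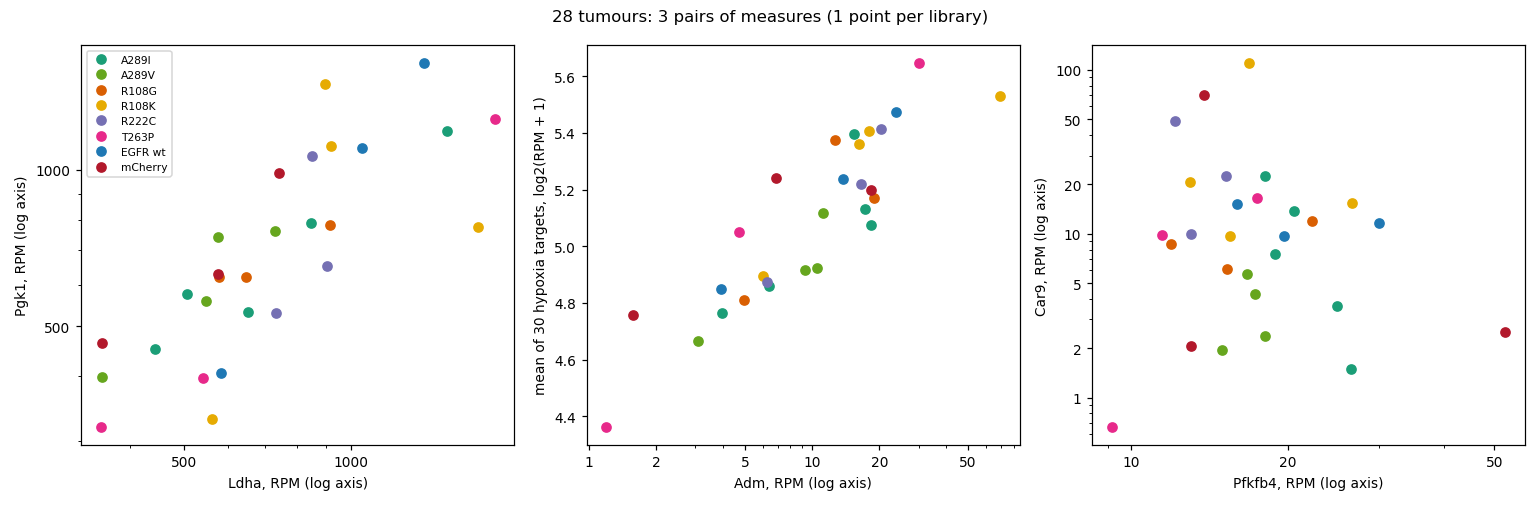
Each point is 1 of the 28 tumours, coloured by group. Left, Pgk1 against Ldha (r = 0.797), middle, the mean log2(RPM + 1) of 30 hypoxia targets against Adm (r = 0.883), both climbing together, and right, Car9 against Pfkfb4 (r = -0.147), with no common course.

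By Spearman's rho over the 28 tumours, among 12110 candidate genes, Ldha was nearest to Pgk1 (0.852), the lactate exporter gene Slc16a3 (0.816) and Eif3c (0.805). Pgk1 was nearest to Ldha, the glycolytic enzyme gene Gpi1 (0.823) and Gla (0.816), and Slc2a1 to Pgk1 (0.802), Ldha (0.791) and Gpi1 (0.759). Adm was nearest to Egln3, a HIF hydroxylase gene (0.846), to Vegfa, the vessel growth factor (0.807), and to Itga4 (0.806). Bnip3 stood beside Ldha (0.783), Vdac3 (0.774) and Msr1 (0.748). Car9 stood beside Eno1b (0.814), a near-identical copy of the enolase gene Eno1, Vamp3 (0.810) and Med8 (0.803). The nearest genes of the others were not in any of the pathway lists: Mvp (0.839), Kcnn4 (0.819) and Lap3 (0.818) for Hk2, Mob3a (0.804), Baz2a (0.776) and Sik1 (0.775) for Pfkfb3, Lactb (0.762), Glmp (0.755) and Nek6 (0.743) for Pfkfb4, and Hebp1 (0.712), Irak2 (0.707) and Apod (0.699) for Ndrg1. Among the 50 genes nearest to Ldha and to Slc2a1 were 5 of the other 9 genes each, and among those nearest to Pfkfb4, Ndrg1 and Hk2 none.

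Between tumour groups, the calls in the wider pathway lay in A289V and A289I, in the comparisons with the largest shares of all tested genes called. Of the 19 other glycolytic genes, 4 were called higher in A289V than in mCherry tumours, beside 4.91% of all tested genes called. Aldoc averaged 720 ± 133 RPM in A289V and 252 ± 71.6 RPM in mCherry tumours (SD, n = 4 and 3), a log2 difference of 1.53 ± 0.32, with Eno2 at 2.11 ± 0.52, Pfkm at 1.52 ± 0.38 and Aldoa at 1.14 ± 0.33 (SE, limma adjusted p = 0.0279, 0.0349, 0.0358 and 0.0486). None of these 4 calls held without A289V library 1 or 2 or mCherry library 2 or 3, with a range term or with the neuron covariate, though all 4 differences stayed above 0 (0.91 at the lowest). All 12 neuron, 8 astrocyte and 8 oligodendrocyte markers had higher means in A289V, with medians of 2.07, 0.96 and 2.15 (1, 1 and 2 called), and their part was not tested. In A289I against mCherry tumours Aldoc alone was called (1.42 ± 0.30 SE, limma adjusted p = 0.0357), beside 0.607% of all tested genes called. That call held in 2 of 8 fits with 1 library left out. There 5 of the 8 oligodendrocyte markers were called higher, with a median of 2.90, and their part was not tested. In A289V against wild-type EGFR tumours, where 13.7% of all tested genes were called, Pfkm (1.73 ± 0.38), Eno2 (2.16 ± 0.52) and Aldoc (1.26 ± 0.32) were higher. Of the hypoxia targets Ppfia4 was higher (2.16 ± 0.59) and Hilpda, a lipid droplet protein gene, lower (-1.34 ± 0.33). Hilpda was at 11.4 ± 3.48 RPM in A289V and 31.7 ± 15.9 RPM in wild-type EGFR tumours. The limma adjusted p of these genes was 0.0093 to 0.019. Of the 11 genes of the HIF machinery Arnt2 was higher (0.997 ± 0.333 SE, limma adjusted p = 0.0466). None of these 6 calls held without A289V library 2 or wild-type EGFR library 2, or with the neuron covariate. The neuron markers were higher in the same comparison, as given above.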

How the data were processed

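RNA of 28 tumours and 2 cortex samples had been sequenced from stranded polyadenylated RNA libraries (TruSeq Stranded mRNA, per the labels' protocols). The deposited tables are named RPM, but hold a normalised signal, gene read counts that the authors had divided by 1 size factor per library: undoing this left whole reads, within 0.05, for all values but 1. A division by 10.3, the same throughout, put them on the scale called RPM here. Per the submitters' processing notes, FastQC, STAR 2.5.0a, DESeq2 1.20.0 and mm10 were used, without their roles. Whether counting used strand is not given in the sources used here, and Car9, Pfkfb3, Slc2a1, Bnip3, Ndrg1, Hk2 and Adm have antisense genes annotated, from which their reads could not be told apart without it.

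Genes that reached 1 RPM in 3 or more libraries, 15824 of them, were fitted on log2(RPM + 1) by limma 3.58.1 (R 4.3.3) with 9 group means over the 30 libraries and a robust, trended eBayes step. Tests were two-sided, on 21 residual degrees of freedom plus the prior ones that the eBayes step adds. Benjamini-Hochberg adjustment ran across the genes fitted (threshold 0.05). A mean of groups weights them equally. The fit was tested on simulated data. The members, lists and tests were chosen with earlier results of these data known. Of each further list, up to 4 called genes with the smallest adjusted p are named, except that 1 is not reported here. For each member, the 3 genes with the highest rho over the tumours are named, predicted and sex-specific loci passed over. These candidates had a tumour mean of 5 RPM or more.

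Replicates within a group were numbered in accession order. Alternatives were library weights, TMM rescaling, a 5 RPM filter or none, a 0.1 RPM pseudocount, a term for 2 or 3 ranges of library numbers, 1 range alone, only the groups compared, the neuron mean as a covariate, each library left out, and edgeR 4.0.16 and DESeq2 1.42.0 on the recovered reads. Correlations with group means or the neuron mean removed were added after seeing the data. Positions are from GENCODE M21 on mm10, start regions from RefSeq on GRCm38.p6. Figures were drawn with matplotlib 3.10.9, and correlations computed with scipy 1.17.1 in Python 3.11.15.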

Additional observations from a re-analysis of the deposited data

Results flagged for a closer look

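Of 30 gene and group pairs with 4 or more libraries, 2 held a library far from the others of its group, and chance flags about 1 in 20. Car9 was 109.6 RPM in R108K library 1, with the next R108K tumour at 20.8 RPM and the lowest at 9.62 RPM. Slc2a1 was 164.9 RPM in A289V library 2, with the next A289V tumour at 96.9 RPM and the lowest at 92.0 RPM. That A289V library also had the highest summed neuron markers of the tumours, 10968 RPM, and their part in its Slc2a1 level was not tested.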

How the results depend on the processing

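No paired analysis was possible because the replicate numbers only follow accession order and tie no samples across groups.

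Of the 10 genes, those called in tumours against cortex were 4, but 7 with library weights (Adm, Bnip3 and Ldha added) and 1, Hk2, with the neuron mean as a covariate, where Ndrg1 (-1.39) and Pfkfb3 (1.42) differed about as much as before. Leaving out 1 library gave 2 to 5. In mCherry tumours against cortex they were 2 (Hk2 and Pfkfb3) with that covariate and 2 to 3 when 1 library was left out. Between tumour groups, where none was called, 1 was called in A289V against mCherry with DESeq2 (Car9), 1 in A289V against wild-type EGFR with library weights (Hk2) or only the groups compared (Car9), 1 in A289I against A289V with library weights (Hk2), and 1 in the test over 8 groups with library weights (Hk2), a term for 2 or 3 ranges or DESeq2 (Car9).

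Genes that were not called turned sign in some settings, and the cause was not tested. In tumours against cortex, Pfkfb4 was 0.21 and 0.063 with terms for 2 and 3 ranges and 0.017 and 0.015 in edgeR and DESeq2, Pgk1 0.035 and 0.034 in the same tools, Slc2a1 -0.14 and -0.29 with the terms and -0.19 with the covariate, and Ldha -0.54 with the covariate. In mCherry tumours against cortex, with terms for 2 and 3 ranges and the covariate, Slc2a1 was -0.31, -0.57 and -0.27 and Ldha -0.036, -0.32 and -0.89, Adm -0.11 with 3 ranges and -0.20 with the covariate, and Pfkfb4 -0.0075 with the covariate. In this comparison the values with 2 ranges equal those without mCherry library 3, since that library alone sets the step at 37. Over libraries left out, Pfkfb4 was -0.38 (without mCherry library 2) to 0.59, Slc2a1 -0.31 and Ldha -0.036 (both without mCherry library 3) to 0.41 and 0.49, and Pgk1 -0.43 to 0.11 (without mCherry library 1).

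Over all tested genes, 7501 were called in tumours against cortex, 7480 by edgeR on the recovered reads, 12104 with library weights and 2380 with the covariate. In mCherry tumours against cortex 6061 were called, 6037 by edgeR, 3867 with 3 ranges and 2149 with the covariate. Groups of 2 to 5 libraries and, for Car9 in cortex, 1 and 2 reads limit the precision.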
